A study of Mus musculus with 26 samples.

Results

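The comparison set cultured mouse femoral osteoblasts with a deletion of the CxxC domain of Kdm2b (CKO-YOUNG) against control osteoblasts (CON-YOUNG), both labelled young. It was chosen by group label and covers every gene: 6 of the 26 samples of the series, 3 a group. RNA was sequenced in 18 samples, and the other 8, CUT&Tag libraries for the histone mark H2AK119ub1, are not analysed here.

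CKO-YOUNG cells came from femurs of Kdm2b fl/fl Ocn-cre Ai14 mice on C57BL/6J. CON-YOUNG cells came from Ocn-cre Ai14 mice, so the driver and the reporter were present on both sides and the floxed allele on one. Ocn-cre uses the osteocalcin promoter, which is active in mature osteoblasts, and Ai14 is a red fluorescent reporter of recombined cells, by which cells can be screened. CKO-OLD was the same knockout labelled old. CON-OLD-iBP held old controls that received iBP, which the labels do not spell out. The groups YOUNG and OLD were taken from C57BL/6J mice aged 3 and 18 months, for which the labels name no driver and no floxed allele. The labels give no age in months for the CKO and CON groups. All cells were grown in DMEM with fetal bovine serum. The labels do not say whether replicates were separate animals, and the p-values therefore cover the spread between these samples only, which may be technical. In such bulk RNA, fewer cells of a type and less RNA per cell cannot be told apart.

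Kdm2b is a subunit of a variant Polycomb repressive complex, PRC1.1, which also holds Bcor, Pcgf1 and the ubiquitin ligase Rnf2. Its CxxC zinc finger binds DNA at CpG dinucleotides that carry no methyl group, and so brings the complex to CpG islands, where Rnf2 places ubiquitin on histone H2A (H2AK119ub1). In development the Polycomb system keeps genes of other lineages silent. In bone, Wnt signals through beta-catenin drive osteoblast formation.

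The 6 libraries held 54860805 to 64792674 counts, so 1 count was worth 0.0146 to 0.0184 CPM (counts per 1e6 counts of the TMM-scaled library). The osteoblast label was checked against markers. Col1a1, the main bone collagen, stood at 16479 to 25118 CPM in CKO-YOUNG and 17334 to 32712 CPM in CON-YOUNG, and the osteoblast transcription factors Runx2 and Sp7 and the phosphatase Alpl were present in every library. Osteocalcin (Bglap), whose promoter drives the Cre, had 0.152, 0 and 0.306 CPM in the CKO-YOUNG libraries, against 0.15, 0 and 9.89 CPM in the CON-YOUNG libraries, given here and below as replicates 1, 2 and 3. The osteocyte gene Dmp1 stayed under 2 CPM. Markers of the late osteoblast were thus near 0 in 5 of the 6 libraries.

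Replicate 3 stood apart on both sides. Replicates 1 and 2 correlated across genes at a Spearman rho of 0.991 in CKO-YOUNG and 0.989 in CON-YOUNG, while replicate 3 correlated with its own group at 0.943 to 0.950 and 0.918 to 0.927. The nuclear RNA Malat1 took 0.0435%, 0.0369% and 0.0957% of counts in CKO-YOUNG 1, 2 and 3, and 0.0413%, 0.0334% and 0.132% in CON-YOUNG 1, 2 and 3. CKO-YOUNG 3 had 372 CPM of Xist, the RNA of the inactive X chromosome, where the other 5 libraries had 0.0883 to 0.404 CPM, and it also held 21.3 CPM of the Y-linked gene Ddx3y. Macrophage marker genes summed to 0.0192%, 0.0157% and 0.112% of counts in CKO-YOUNG, and to 0.0217%, 0.0221% and 0.0525% in CON-YOUNG. Results are therefore given with all replicates, and within replicates 1 and 2 or for replicate 3 alone where these differ.

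Kdm2b, the targeted gene, had 51.5, 58.2 and 27.6 CPM in CKO-YOUNG, against 48.8, 52.9 and 19.9 CPM in CON-YOUNG. The groups overlapped, and replicate 3 was the lowest of each. The log2 fold change was 0.17 (SE 0.41, edgeR adjusted p = 1). A count over all exons cannot show that 1 domain was lost, so the deletion itself was not read from these data.

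Of 16566 genes tested, 21 were higher in CKO-YOUNG and 0 were lower at an adjusted p under 0.05 (edgeR quasi-likelihood test over all 18 RNA libraries, Benjamini-Hochberg adjustment), which is 0.127% of the genes tested. At an unadjusted p under 0.05 there were 501 higher and 406 lower genes, together 5.48%. DESeq2 called 159 higher and 68 lower genes (1.37% of those tested), among them all 21, and limma-voom 65 higher and 0 lower (0.392%), among them 19 of the 21. For each of the 21 genes the lowest CKO-YOUNG library was above the highest CON-YOUNG library. Their fold changes were positive in all 17 alternative fits, which that split fixes in advance because those fits use the same libraries. Such a split without overlap, higher in CKO-YOUNG, was found in 5.32% of the genes tested, and lower in 3.19%; the 21 were chosen in these libraries, so nothing is read from their count. Single genes were called in 5 (Pianp and Nup62cl) to 15 (Mafa and Tcfl5) of the 17 alternatives, Cacna1h and Rab6b in 6 and Aplp1 in 7.

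How many genes were called depended on the libraries and on the model. Without CKO-YOUNG 1, 2 or 3 there were 7, 8 and 10 higher calls, without CON-YOUNG 1 or 2 there were 3 and 2, and without CON-YOUNG 3 there were 22 higher and 1 lower, with 10 of the 21 among them. Mafa and Tcfl5 were the 2 genes called without CON-YOUNG 2 (0.0118% of the genes tested there). Without replicate 3 of both groups 16 genes were called higher and 3 lower (0.112%), and 5 of the 21 were among them. With the replicate number as a block in the fit of 18 libraries 35 genes were called (0.211%), 30 higher and 5 lower, 17 of them shared with the 21. Tmem132e, Pianp, Cacna1h and Rab6b lost the call under that block. The same block on the 6 libraries alone, with 2 residual degrees of freedom, gave 0 calls in edgeR and 713 genes at an unadjusted p under 0.05.

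**Figure D1:**
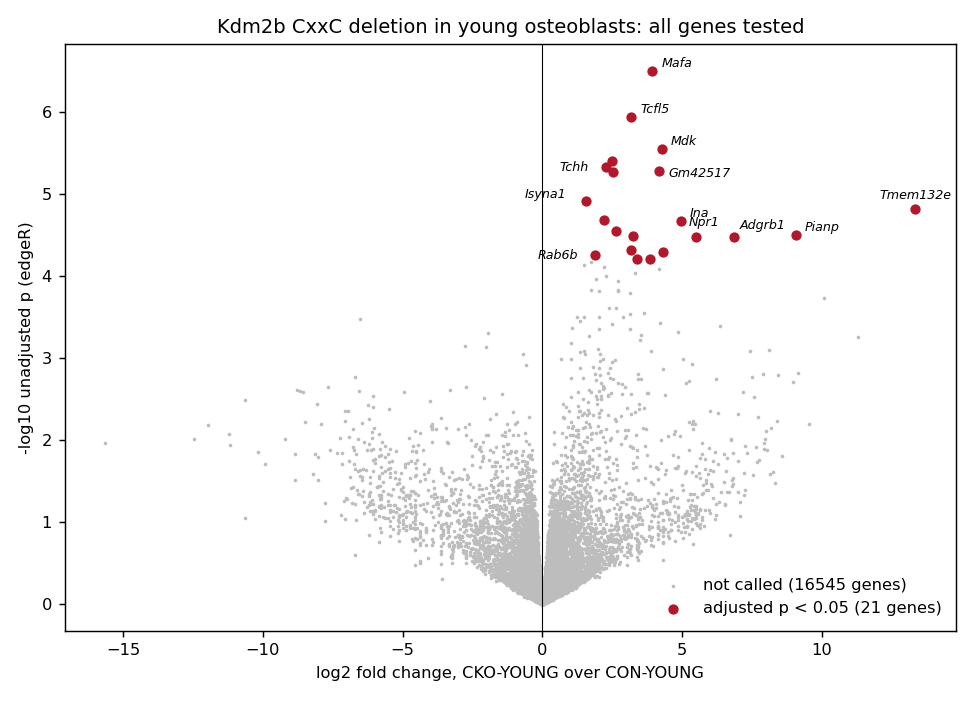
Each point is 1 of the 16566 genes tested, with the log2 fold change of CKO-YOUNG over CON-YOUNG on the x axis and the negative log10 of the unadjusted edgeR p on the y axis. The 21 genes with an adjusted p under 0.05 (red, some of them named) all lie to the right of 0, and the positions of Tmem132e and Pianp on the x axis depend on the prior count because CON-YOUNG had 0 counts of them.

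Because the deleted domain reads CpG, the promoters of called genes are shown as sequence. The RefSeq promoter table (GRCm38.p6) held 13 of the 21 by symbol. Below are the 250 bases before the annotated start of 3 called genes whose groups lay far apart, and of the 1 with no CpG there, with each CG in capitals; the coordinates are of GRCm38.p6, not of the mm39 build named by the submitters.
Tmem132e, chr11:82388650-82388899, plus strand: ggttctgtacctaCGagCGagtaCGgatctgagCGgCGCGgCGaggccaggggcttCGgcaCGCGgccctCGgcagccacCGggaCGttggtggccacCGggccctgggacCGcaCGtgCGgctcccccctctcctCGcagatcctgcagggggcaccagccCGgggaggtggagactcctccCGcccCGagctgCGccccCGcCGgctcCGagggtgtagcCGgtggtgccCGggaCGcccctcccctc
Npr1, chr3:90465867-90466116, minus strand: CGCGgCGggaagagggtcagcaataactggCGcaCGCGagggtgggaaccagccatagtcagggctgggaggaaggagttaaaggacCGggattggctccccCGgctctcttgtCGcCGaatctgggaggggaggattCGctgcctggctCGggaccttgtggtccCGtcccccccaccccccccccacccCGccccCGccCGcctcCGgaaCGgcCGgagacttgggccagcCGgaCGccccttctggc
Tcfl5, chr2:180642692-180642941, minus strand: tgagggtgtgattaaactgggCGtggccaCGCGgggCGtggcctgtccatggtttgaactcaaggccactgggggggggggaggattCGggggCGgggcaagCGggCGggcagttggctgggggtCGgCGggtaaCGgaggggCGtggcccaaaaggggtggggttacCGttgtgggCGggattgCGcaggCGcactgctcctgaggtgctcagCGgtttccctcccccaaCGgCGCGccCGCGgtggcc
Tchh, chr3:93442080-93442329, plus strand: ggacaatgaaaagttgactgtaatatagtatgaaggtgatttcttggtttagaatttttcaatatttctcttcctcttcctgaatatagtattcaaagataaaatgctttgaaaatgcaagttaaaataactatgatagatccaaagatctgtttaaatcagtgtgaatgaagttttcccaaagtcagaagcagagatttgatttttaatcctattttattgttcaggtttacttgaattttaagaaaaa

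The window of Tmem132e held 28 CG dinucleotides, that of Npr1 21, that of Tcfl5 22 and that of Tchh 0. The other 9 windows held 9 (Bdh1) to 40 (Rab6b). Over all 32851 starts of the table, 92.1% of such windows held at least 1 CG, with a median of 6. CG was read on 1 strand since it reads the same on both. That median is over every listed start of every gene in the table, tested or not. The windows of called genes are instead those of the start richest in CG of each gene. Chosen that way, the genes tested had a median of 20 CG over 300 bases, a longer window. A comparison of the 21 with all genes tested was void, because 61.9% of the 21 had a promoter in the table, which is under 80%. The sequences describe these windows only.

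Transcription factors came first by p. Mafa, a basic leucine zipper factor known from the insulin gene of pancreatic beta cells, had 10.1, 16.8 and 8.10 CPM in CKO-YOUNG, against 0.718, 0.938 and 0.646 CPM in CON-YOUNG. Its log2 fold change was 3.92 (SE 0.45, adjusted p = 0.00517). The second was Tcfl5, a factor of the helix-loop-helix family known from male germ cells, which had 46.8, 50.7 and 51.2 CPM in CKO-YOUNG, against 7.15, 7.35 and 1.85 CPM in CON-YOUNG. The CKO-YOUNG libraries lay within 5 CPM of each other and the CON-YOUNG libraries were all at least 6-fold below, at a log2 fold change of 3.18 (SE 0.41, adjusted p = 0.00942).

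Other called genes code for growth factors, receptors and a matrix protein. Mdk, midkine, a secreted heparin-binding growth factor, had 12.7, 11.4 and 20.8 CPM in CKO-YOUNG, against 0.601, 0.882 and 0.843 CPM in CON-YOUNG (log2 fold change 4.27, SE 0.59, adjusted p = 0.0128). Npr1, the membrane guanylyl cyclase that is the receptor of the atrial natriuretic peptide, had 18.1, 17.9 and 29.4 CPM in CKO-YOUNG, against 0.568, 0.423 and 0.466 CPM in CON-YOUNG (5.48, SE 0.94, adjusted p = 0.0343). Cntfr, the binding subunit of the ciliary neurotrophic factor receptor, had 14.4, 14.8 and 20.4 CPM in CKO-YOUNG, against 1.12, 1.12 and 2.55 CPM in CON-YOUNG (3.37, SE 0.61, adjusted p = 0.049). In all 3 genes every CKO-YOUNG library was at least 5-fold above every CON-YOUNG library. Spon1, F-spondin, a matrix protein first known from the floor plate of the neural tube, had 31.1, 26.4 and 10.7 CPM in CKO-YOUNG, against 3.41, 4.56 and 2.91 CPM in CON-YOUNG (2.65, SE 0.45, adjusted p = 0.0343), with CKO-YOUNG 3 the lowest of its group.

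Other genes of these pathways were not called. Of 10 natriuretic peptide genes tested Npr1 was called and no other, against 0.127% of all genes. Npr2, the receptor of the C-type peptide, had a log2 fold change of -0.37 and the clearance receptor Npr3 of -0.33, both at an adjusted p of 1. Of 22 genes of the midkine and gp130 cytokine families, Mdk and Cntfr were called, against 0.127% of all genes, and 10 were negative. Both lists were written with earlier results of these data known, so their counts are not independent of them.

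Of the 21, 4 were on a list of neuronal genes: Tmem132e, Adgrb1, Ina and Cacna1h. Tmem132e, a membrane protein needed for hearing, had 21.4, 22.1 and 22.4 CPM in CKO-YOUNG, against 0 counts in all 3 CON-YOUNG libraries. It was at least 1244-fold higher, taking 3 counts over the CON-YOUNG group as the floor (adjusted p = 0.0283, or 0.0575 with the replicate block over 18 libraries). Pianp, a neural membrane protein that is not on the list, had 0.913, 1.25 and 1.24 CPM in CKO-YOUNG, against 0 counts in CON-YOUNG, at least 64.4-fold higher (adjusted p = 0.0343, or 0.0505 with the block). These were the 2 called genes with no count in CON-YOUNG, and in each the 3 CKO-YOUNG libraries were close to one another.

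Adgrb1, an adhesion receptor that takes part in the engulfment of dying cells, had 24.5, 21.3 and 11.9 CPM in CKO-YOUNG, against 0.15, 0.129 and 0.215 CPM in CON-YOUNG (log2 fold change 6.85, SE 1.17, adjusted p = 0.0343). Ina, the neurofilament protein alpha-internexin, had 7.46, 9.22 and 3.02 CPM in CKO-YOUNG, against 0.267, 0.129 and 0.233 CPM in CON-YOUNG (4.95, SE 0.81, adjusted p = 0.0319). Every CKO-YOUNG library was over 11-fold above every CON-YOUNG library in both genes. Cacna1h, a T-type calcium channel, had 17.2, 9.24 and 75.4 CPM in CKO-YOUNG, against 2.57, 1.47 and 1.06 CPM in CON-YOUNG (4.32, SE 0.77, adjusted p = 0.0463, or 0.0736 with the block). CKO-YOUNG 3 carried most of the CKO-YOUNG mean of this channel.

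Caskin1, a synaptic scaffold protein, had 4.46, 4.19 and 11.4 CPM in CKO-YOUNG, against 0.384, 0.551 and 1.20 CPM in CON-YOUNG (log2 fold change 3.23, adjusted p = 0.0343). Aplp1, a relative of the amyloid precursor protein, had 75.8, 78.6 and 145 CPM in CKO-YOUNG, against 26.1, 21 and 18.4 CPM in CON-YOUNG (2.19, adjusted p = 0.0319). Rab6b, a Golgi GTPase enriched in neurons, had 26.1, 35 and 33.9 CPM in CKO-YOUNG, against 9.14, 9.96 and 6.53 CPM in CON-YOUNG (1.89, adjusted p = 0.0487, or 0.055 with the block). Replicate 3 was the highest CKO-YOUNG library for Caskin1 and Aplp1 and not for Rab6b. Nrbp2, a pseudokinase described in neural progenitors, had 46.3, 38.3 and 97.7 CPM in CKO-YOUNG, against 14.6, 9.65 and 8.49 CPM in CON-YOUNG (2.48, adjusted p = 0.0128).

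The remaining called genes had other roles. Cdkn1c, an imprinted inhibitor of cyclin-dependent kinases, had 7.03, 5.72 and 24.3 CPM in CKO-YOUNG, against 1.30, 1.08 and 1.70 CPM in CON-YOUNG (log2 fold change 3.18, adjusted p = 0.0463). Isyna1, the enzyme that makes inositol phosphate from glucose phosphate, had 69.2, 71.4 and 65.6 CPM in CKO-YOUNG, against 21.5, 23.1 and 25.8 CPM in CON-YOUNG (1.55, SE 0.24, adjusted p = 0.0253). Isyna1 had the smallest fold change of the 21 and the smallest standard error. Bdh1, the mitochondrial enzyme that interconverts ketone bodies, had 3.64, 6.34 and 7.25 CPM in CKO-YOUNG, against 0.969, 1.38 and 0.610 CPM in CON-YOUNG (2.54, adjusted p = 0.0128). Tchh, trichohyalin of the hair follicle sheath, had 14.3, 12.8 and 14.2 CPM in CKO-YOUNG, against 2.67, 1.64 and 4.16 CPM in CON-YOUNG (2.28, adjusted p = 0.0128). The nearly equal CKO-YOUNG levels of Isyna1 and Tchh contrast with those of Cdkn1c, whose CKO-YOUNG 3 value was over 3-fold the other two. Nup62cl, a relative of a nuclear pore protein, had 4.45, 5.16 and 3.21 CPM in CKO-YOUNG, against 0.0835, 0.460 and 0.341 CPM in CON-YOUNG (3.85, adjusted p = 0.049), and the last called gene was the predicted symbol Gm42517.

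In the gene order of GRCm38, 10 of the 21 overlapped another gene, such as Tcfl5 with Col9a3, Mdk with Chrm4 and Ina with Nt5c2, and 11 did not, among them Mafa, Npr1, Tmem132e and Adgrb1. Whether strand was used in counting is not given in the sources used here, so reads of overlapping genes cannot be told apart.

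Among genes that were not called and whose groups did not overlap, higher ones stood closest to the threshold. Ephb2, an ephrin receptor, had 58.0, 59.7 and 60.5 CPM in CKO-YOUNG, against 23.0, 19.9 and 9.90 CPM in CON-YOUNG (log2 fold change 1.75, adjusted p = 0.0513). Hsf4, Prob1, Dmrta2 and Pik3c2b followed at adjusted p of 0.0524 to 0.0588. Among lower genes whose groups did not overlap, Hspa12a had the smallest p, with 2.37, 2.03 and 1.66 CPM in CKO-YOUNG, against 4.38, 4.54 and 14.3 CPM in CON-YOUNG (-1.94, adjusted p = 0.156). Nmnat1, which makes NAD in the nucleus, had 2.91, 5.92 and 4.55 CPM in CKO-YOUNG, against 23.8, 23.8 and 6.64 CPM in CON-YOUNG (-2.02, adjusted p = 0.205). Nmnat1 was the 1 gene called lower without CON-YOUNG 3.

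**Figure D2:**
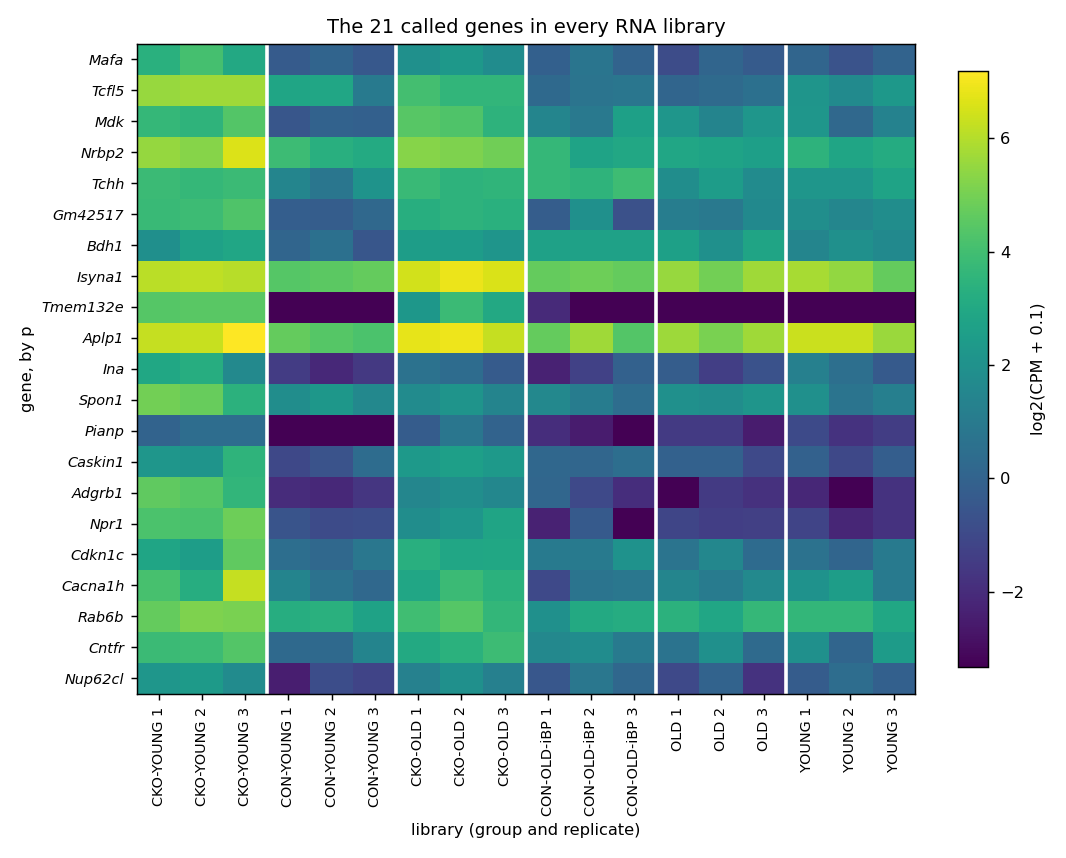
Each row is 1 of the 21 called genes in order of p, each column 1 of the 18 RNA libraries by group and replicate, and the colour is log2(CPM + 0.1). The CKO-YOUNG columns are brighter than the CON-YOUNG columns in every row, and in 17 of the rows every CKO-OLD column is brighter than every OLD column.

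The old groups, which share no library with the young ones, gave a second reading of the same deletion. Of the 21 genes, 19 had a positive fold change in CKO-OLD over OLD, against 48.2% of all genes tested, and Bdh1 (-0.11) and Spon1 (-0.20) did not. Their median log2 fold change was 2.17 there, beside 3.37 in the young comparison that chose them, and beside -0.01 over all genes in each comparison. With Tmem132e and Pianp set at their lower bounds the young median was still 3.37. For 17 of the 21 every CKO-OLD library was above every OLD library, against 8.90% of all genes, and for 17 every CKO-OLD library was above every CON-OLD-iBP library, against 16.0% of all genes. The labels name no driver or reporter for OLD, so mouse line and knockout cannot be told apart against that group. The label of CON-OLD-iBP names iBP and that of CKO-OLD does not, so iBP and knockout cannot be told apart against CON-OLD-iBP. Malat1 took 0.0377%, 0.173% and 0.0368% of counts for OLD 1, 2 and 3. For the old knockout libraries 1, 2 and 3 its share was 0.182%, 0.176% and 0.179%. OLD 1 and 3 thus fell below the 0.05% cut that parts library sets, while OLD 2 and every CKO-OLD library lay above it. The part of this split in the old comparison was not tested. OLD 1 and 3 also held Xist at 481 and 454 CPM with 0 CPM of Ddx3y, and macrophage markers summed to 0.157% to 0.673% of counts in CKO-OLD and to 1.23%, 0.159% and 1.22% in OLD 1, 2 and 3, whose part in the result was not tested.

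Of the 21, 1 was called in CKO-OLD against OLD, where 0.00604% of all genes were. This was Tcfl5, with 16.6, 11.9 and 11.9 CPM in CKO-OLD, against 0.971, 1.15 and 1.37 CPM in OLD (log2 fold change 3.53, SE 0.42, adjusted p = 0.00706). With the replicate block over 18 libraries 4 of the 21 were called, a count for which no share over all genes is given. At an unadjusted p under 0.05 there were 17 of the 21, against 1352 of all 16566 genes tested. DESeq2 called 14 of the 21 in this comparison, where it called 1.09% of all genes. Nrbp2 had 38.3, 35.5 and 29.5 CPM in CKO-OLD, against 7.26, 6.76 and 6.01 CPM in OLD (2.37, adjusted p = 0.0549).

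Tmem132e had 4.56, 14.3 and 8.02 CPM in CKO-OLD, against 0 counts in OLD and in YOUNG, and 0.141, 0 and 0 CPM in CON-OLD-iBP. It was therefore detected in all 6 knockout libraries and in 1 of the 12 others. Adgrb1 had 2.73, 3.50 and 2.79 CPM in CKO-OLD, against 0, 0.248 and 0.179 CPM in OLD (log2 fold change 4.40, adjusted p = 0.28). Npr1 had 3.46, 4.52 and 6.84 CPM in CKO-OLD, against 0.362, 0.283 and 0.298 CPM in OLD (3.96, adjusted p = 0.228). Both stood below their CKO-YOUNG levels and above every library without the deletion.

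Spon1 and Bdh1, called in the young comparison, had negative values in the old one. Spon1 had 3.30, 4.29 and 2.54 CPM in CKO-OLD, against 3.77, 3.41 and 4.42 CPM in OLD, all near the CON-YOUNG level. Bdh1 had 5.71, 5.45 and 4.38 CPM in CKO-OLD, against 6.11, 3.77 and 6.86 CPM in OLD, and it was the CON-YOUNG group that was low among all 6. The difference of the 2 knockout effects, tested in the same fit, was 2.65 for Bdh1 (unadjusted p = 9.27e-05) and 2.84 for Spon1 (unadjusted p = 0.000301), both at an adjusted p of 0.963. No gene of 16566 passed the test of that difference in edgeR, while 796 had an unadjusted p under 0.05, 9 of them among the 21. The young effect was the larger in 20 of the 21, which were chosen in the young comparison.

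Tchh was high in a control group as well, at 12.6, 11.3 and 14.9 CPM in CON-OLD-iBP, beside 13.8, 10.9 and 11.6 CPM in CKO-OLD and 3.48, 5.54 and 3.30 CPM in OLD. Against the YOUNG group, for which no driver is named either, 19 of the 21 had every CKO-YOUNG library above every YOUNG library, where 14.1% of all genes did. The 21 were chosen by these CKO-YOUNG libraries, so that count is a description only. YOUNG 1 and 2 held Xist at 432 and 391 CPM with 0 CPM of Ddx3y, and macrophage markers summed to 1.72%, 1.11% and 0.377% of counts in YOUNG 1, 2 and 3, whose part in the result was not tested. The exceptions were Aplp1, at 80.9, 79.9 and 47.9 CPM in YOUNG, and Bdh1, at 2.63, 3.81 and 3.05 CPM in YOUNG.

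**Figure D3:**
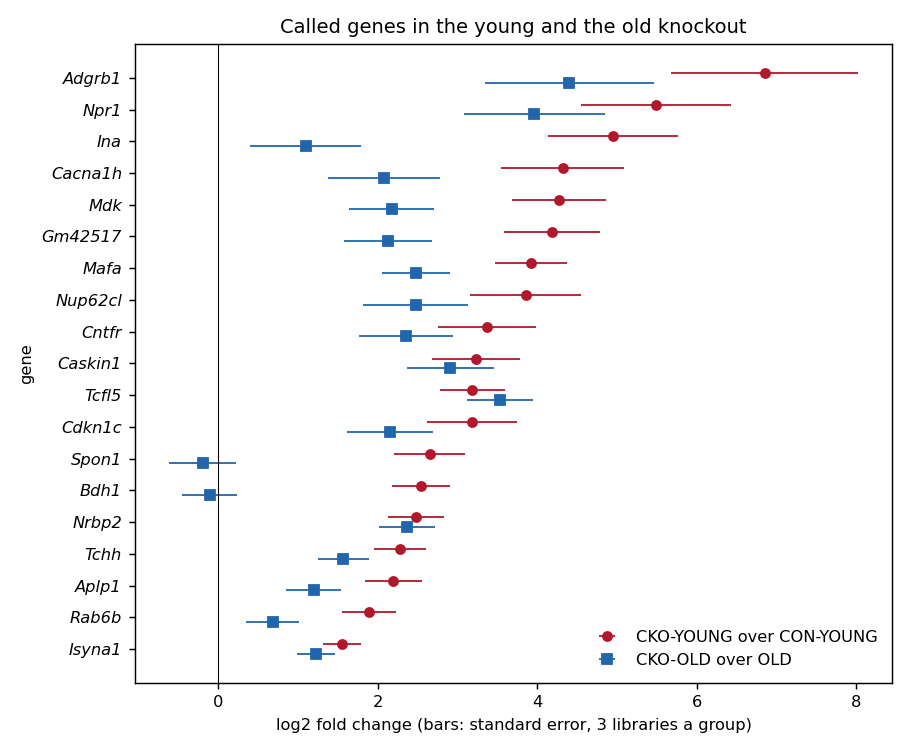
Points are log2 fold changes with their standard errors for CKO-YOUNG over CON-YOUNG (red circles) and CKO-OLD over OLD (blue squares), 3 libraries a group, for the 19 called genes with counts in CON-YOUNG. The blue squares lie right of 0 for 17 of these genes, Bdh1 and Spon1 being the exceptions, and Tcfl5 is the 1 gene whose square lies right of its circle.

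The genes of the Polycomb complexes came next. Of 10 PRC1.1 genes, 6 were positive and 4 negative (median log2 fold change 0.13), and edgeR called 0. An unadjusted p under 0.05 was found for 2, against 5.48% of all genes. DESeq2 called 1, Bcor, against 1.37% of all genes. Bcor, the corepressor subunit of the complex, had 194, 239 and 101 CPM in CKO-YOUNG, against 82.1, 86.6 and 25.9 CPM in CON-YOUNG (1.46, adjusted p = 0.373). The groups of Bcor did not overlap, and CON-YOUNG 3 was the lowest library. Rnf2, the ligase, differed by 0.38 (adjusted p = 0.9). Of 12 PRC2 genes 7 were positive, with a median of 0.04. Epop, a vertebrate partner of PRC2 and elongin, had 70.5, 80.0 and 36.8 CPM in CKO-YOUNG, against 21.1, 26.5 and 9.01 CPM in CON-YOUNG (1.72, adjusted p = 0.0756), and it was called by DESeq2 and limma-voom and within replicates 1 and 2 (adjusted p = 0.00535). Of 12 canonical PRC1 genes 5 were positive (median -0.07), and of 12 genes of CxxC proteins 8 were positive (median 0.06).

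Genes of developmental patterning, which the Polycomb system holds silent in many tissues, were positive more often than negative. Of 49 developmental transcription factors tested 35 were positive and 12 negative, against 7876 positive and 8554 negative of all genes, and the median was 0.46. Mafa was the 1 gene that edgeR called, against 0.127% of all genes, and 10 had an unadjusted p under 0.05, against 5.48% of all genes. The list was written with earlier results of these data known, so its counts are not independent of them. Lhx2, a LIM homeobox factor, had 27.7, 28.6 and 15.7 CPM in CKO-YOUNG, against 3.96, 2.37 and 0.466 CPM in CON-YOUNG (log2 fold change 3.40, adjusted p = 0.304). Foxl2, a factor of the ovary and eyelid, had 2.96, 3.18 and 5.51 CPM in CKO-YOUNG, against 0.134, 0 and 0.144 CPM in CON-YOUNG (5.36, adjusted p = 0.255). Nkx3-2, a factor of the early skeleton, had 1.81, 2.88 and 3.14 CPM in CKO-YOUNG, against 0.384, 0.956 and 0.395 CPM in CON-YOUNG (2.17, adjusted p = 0.235). None of these 3 overlapped between groups, a split found higher in 5.32% of all genes. DESeq2 called each of them higher, as it did Barx1 and Mafa, against 1.37% of all genes called in either direction.

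The Hox genes, which set position along the body and the limb, showed the split between replicates. Of 35 tested 21 were positive over all replicates (median 0.19), 29 within replicates 1 and 2 (median 0.41) and 13 in replicate 3 (median -0.13). Over all replicates edgeR called 0, and 5 had an unadjusted p under 0.05, against 5.48% of all genes. DESeq2 called 1, Hoxd11, against 1.37% of all genes. Hoxd13, the factor of the digits, had 0.744, 0.371 and 0.438 CPM in CKO-YOUNG, against 0 counts in CON-YOUNG (adjusted p = 0.629). Hoxa11 had 12.8, 15.8 and 20.3 CPM in CKO-YOUNG, against 9.87, 8.46 and 0.789 CPM in CON-YOUNG (log2 fold change 1.35, adjusted p = 0.897).

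Of 34 neuronal genes 23 were positive and 11 negative, with a median of 1.33, or 1.24 with genes at 0 in a group set at their bounds. The fitted median was 0.57 within replicates 1 and 2 and 1.68 in replicate 3. The 4 called by edgeR were Tmem132e, Ina, Adgrb1 and Cacna1h, against 0.127% of all genes. DESeq2 called 8, all higher, against 1.37% of all genes in either direction. The list holds genes known to be called when it was written, so its count is not independent of them. Nefm, the medium neurofilament chain, had 0.372, 1.06 and 5.37 CPM in CKO-YOUNG, against 0 counts in CON-YOUNG (adjusted p = 0.0884).

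Wnt ligands and receptors followed. Of 17 ligands and R-spondins 10 were positive and 7 negative (median log2 fold change 0.26), and edgeR called 0. An unadjusted p under 0.05 was found for 5, against 5.48% of all genes. DESeq2 called 2, Wnt6 and Wnt7b, against 1.37% of all genes. Wnt6, a ligand of epithelial and mesenchymal development, had 6.48, 6.96 and 3.56 CPM in CKO-YOUNG, against 0, 0.202 and 0 CPM in CON-YOUNG (adjusted p = 0.141). All 3 CKO-YOUNG libraries held it, and 1 of the CON-YOUNG libraries did. Within replicates 1 and 2 the ligands Wnt11 (1.90, adjusted p = 0.0206) and Wnt10a (adjusted p = 0.0286) were called higher, against 0.374% of all genes. Wnt11, known for bone and kidney development, had 20.4, 26.9 and 32.8 CPM in CKO-YOUNG, against 6.97, 5.66 and 14.1 CPM in CON-YOUNG. Wnt10a had 0.389, 0.548 and 3.12 CPM in CKO-YOUNG, against 0, 0 and 3.64 CPM in CON-YOUNG, so its call rested on low values.

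Of 19 Wnt receptors 13 were positive (median 0.32), and Fzd10, a Wnt receptor that DESeq2 and limma-voom called, had 1.32, 2.24 and 1.53 CPM in CKO-YOUNG, against 0.1, 0.129 and 0.144 CPM in CON-YOUNG (log2 fold change 3.75, adjusted p = 0.353). Of 18 beta-catenin target genes 11 were positive (median 0.44). Axin2, a feedback inhibitor of Wnt signals, had 1.79, 4.59 and 10.1 CPM in CKO-YOUNG, against 1.52, 1.42 and 4.38 CPM in CON-YOUNG (1.17, SE 0.62, adjusted p = 0.973). Lef1, a nuclear partner of beta-catenin, had 8.23, 10.0 and 1.59 CPM in CKO-YOUNG, against 1.47, 2.74 and 1.44 CPM in CON-YOUNG (1.81, SE 0.94, adjusted p = 0.97). In both genes 1 CKO-YOUNG library lay within the range of CON-YOUNG. The beta-catenin list had 9 positive and 9 negative members within replicates 1 and 2.

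Of 22 osteoblast matrix and mineral genes 7 were positive and 14 negative (median -0.23), or a median of -0.31 with genes at 0 in a group set at their bounds. Of 14 osteoblast transcription factors 4 were positive (median -0.27). In both lists together edgeR called 0 genes, and 4 had an unadjusted p under 0.05, against 5.48% of all genes. DESeq2 called 1, Dlx3, against 1.37% of all genes. Spp1, osteopontin, had 2351, 1848 and 1487 CPM in CKO-YOUNG, against 3381, 2401 and 6496 CPM in CON-YOUNG (log2 fold change -1.11, adjusted p = 0.63). Smpd3, a sphingomyelinase needed for mineralization, went the other way, with 116, 134 and 71.4 CPM in CKO-YOUNG, against 56.5, 46.4 and 16.6 CPM in CON-YOUNG (1.42, adjusted p = 0.619). Dlx3, a homeobox factor of bone and teeth, had 3.31, 4.68 and 3.08 CPM in CKO-YOUNG, against 1.05, 0.147 and 0.323 CPM in CON-YOUNG (2.85, adjusted p = 0.323). The groups did not overlap for these 3 genes, a split found higher in 5.32% and lower in 3.19% of all genes.

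Cell cycle genes were mostly negative, by small amounts except in replicate 3. Negative were 30 of 35 over all replicates (median -0.22), 22 of 35 within replicates 1 and 2 (median -0.04) and 34 of 35 in replicate 3 (median -1.11). Plk1, a mitotic kinase, had 55.4, 61.6 and 19.1 CPM in CKO-YOUNG, against 69.8, 73.3 and 52.7 CPM in CON-YOUNG (adjusted p = 1). Of 16 cell cycle inhibitors and p53 genes Cdkn1c was called, against 0.127% of all genes, and 10 were negative. Cdkn2a, the senescence-linked locus of Polycomb control, had 5.31, 4.96 and 84.2 CPM in CKO-YOUNG, against 7.92, 8.18 and 147 CPM in CON-YOUNG (log2 fold change -0.79, SE 1.06, adjusted p = 1). Replicate 3 was over 10-fold the other libraries on both sides, and without CON-YOUNG 3 the fitted value turned to 1.97.

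Of 16 imprinted growth genes tested 11 were positive (median log2 fold change 0.22) and Cdkn1c was called, against 0.127% of all genes. Within replicates 1 and 2 there were 12 positive (median 0.73) and in replicate 3 there were 11 (median 0.70). Igf2, a fetal growth factor, had 99.6, 97.1 and 1374 CPM in CKO-YOUNG, against 16.7, 3.73 and 0.628 CPM in CON-YOUNG (log2 fold change 6.22, adjusted p = 0.304). H19, the RNA of the same locus, had 7.68, 5.55 and 607 CPM in CKO-YOUNG, against 16.5, 4.96 and 1.90 CPM in CON-YOUNG (4.73, adjusted p = 0.537). Dlk1 had 0.643, 0.759 and 0.321 CPM in CKO-YOUNG, against 0, 0.349 and 116 CPM in CON-YOUNG (-6.07, adjusted p = 0.629). Igf2 was higher in every CKO-YOUNG library, while H19 and Dlk1 each stood out in 1 library of opposite groups.

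Markers of several other cell types moved with replicate 3, and their part in the results was not tested. Osteoclast markers did not, with medians of -0.23 within replicates 1 and 2 and -0.29 in replicate 3. Endothelial markers moved little (0.69 and 0.98). The same 2 medians were 0.18 and 2.38 for pericyte and smooth muscle markers and -0.12 and 1.39 for adipocyte and marrow stroma markers. For fibroblast markers they were -0.27 and 0.38. Of 17 chondrocyte markers 13 were negative (median -2.01, or -1.35 with genes at 0 in a group set at their bounds), while within replicates 1 and 2 the median was 0.23. Comp, a cartilage matrix protein, had 3.45, 2.83 and 48.5 CPM in CKO-YOUNG, against 2.67, 0.625 and 1043 CPM in CON-YOUNG. Cd34, a marker of progenitor and stromal cells, had 0.338, 0 and 2.42 CPM in CKO-YOUNG, against 0, 0.147 and 342 CPM in CON-YOUNG. CON-YOUNG 3 was by far the highest library for both, and CKO-YOUNG 3 was the highest of its own group for both. Of 24 macrophage markers 19 were positive (median 0.54) over all replicates and 9 within replicates 1 and 2 (median -0.29). Of 14 pericyte and smooth muscle markers 11 were positive (median 0.43), of 11 endothelial markers 9 (0.70), of 15 fibroblast markers 9 (0.09), of 14 adipocyte and marrow stroma markers 6 (-0.13), of 12 osteoclast markers 4 (-0.33) and of 5 blood cell markers 3 (0.24), and edgeR called 0 of the genes in these lists. DESeq2 called the pericyte gene Cspg4 and the fibroblast genes Cd34 and S100a4 lower, each of which was high in CON-YOUNG 3.

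**Figure D4:**
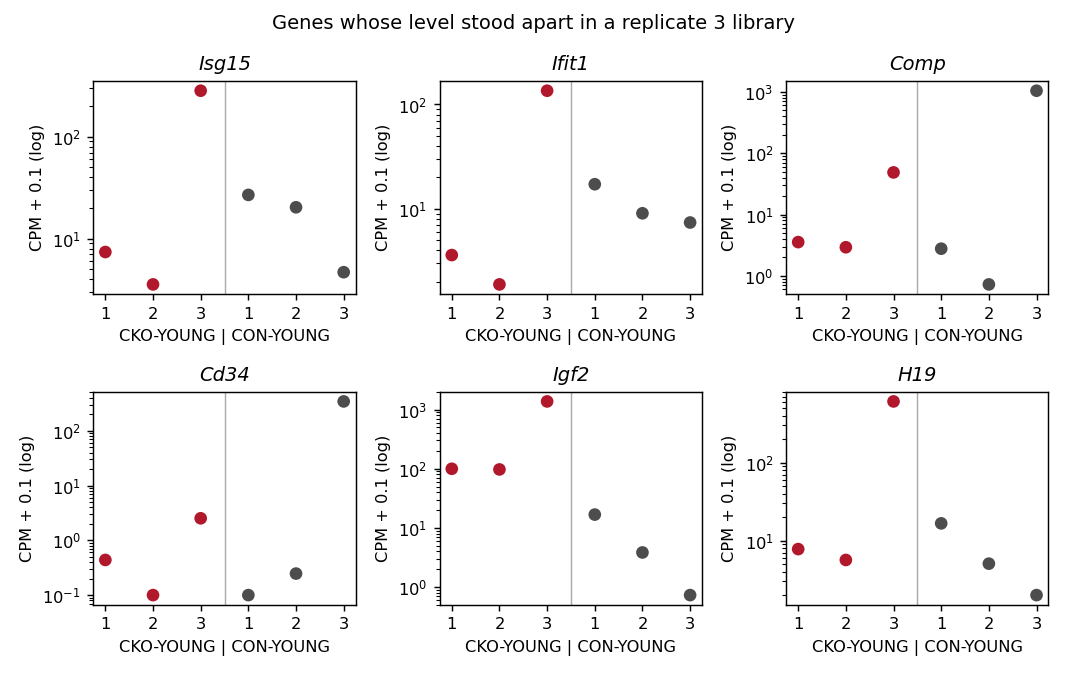
Each panel plots 1 gene, with CPM + 0.1 on a log axis for CKO-YOUNG 1 to 3 (red) and CON-YOUNG 1 to 3 (grey). Isg15, Ifit1 and H19 are far above the rest in CKO-YOUNG 3, Comp and Cd34 in CON-YOUNG 3, and Igf2 is above every CON-YOUNG library in all 3 CKO-YOUNG libraries.

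Interferon response genes gave opposite readings by replicate. Of 20 tested 17 were positive over all replicates (median 0.83) and 18 in replicate 3 (median 3.00), but within replicates 1 and 2 all 20 were negative (median -1.72). Isg15, a ubiquitin-like protein induced by interferon, had 7.30, 3.46 and 283 CPM in CKO-YOUNG, against 26.8, 20.2 and 4.59 CPM in CON-YOUNG. Ifit1, which binds foreign RNA, had 3.50, 1.78 and 135 CPM in CKO-YOUNG, against 17.1, 8.95 and 7.28 CPM in CON-YOUNG. CKO-YOUNG 3 was the highest of the 6 for both genes, CKO-YOUNG 1 and 2 were the lowest for Ifit1, and CKO-YOUNG 2 and CON-YOUNG 3 the lowest for Isg15. Within replicates 1 and 2, 3 of the 20 were called lower, against 0.0845% of all genes. They were the protease Usp18 (log2 fold change -2.63, adjusted p = 0.0331) and the transcription factors Irf7 (-2.11, adjusted p = 0.0377) and Stat2 (-1.17, adjusted p = 0.0464).

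**Figure D5:**
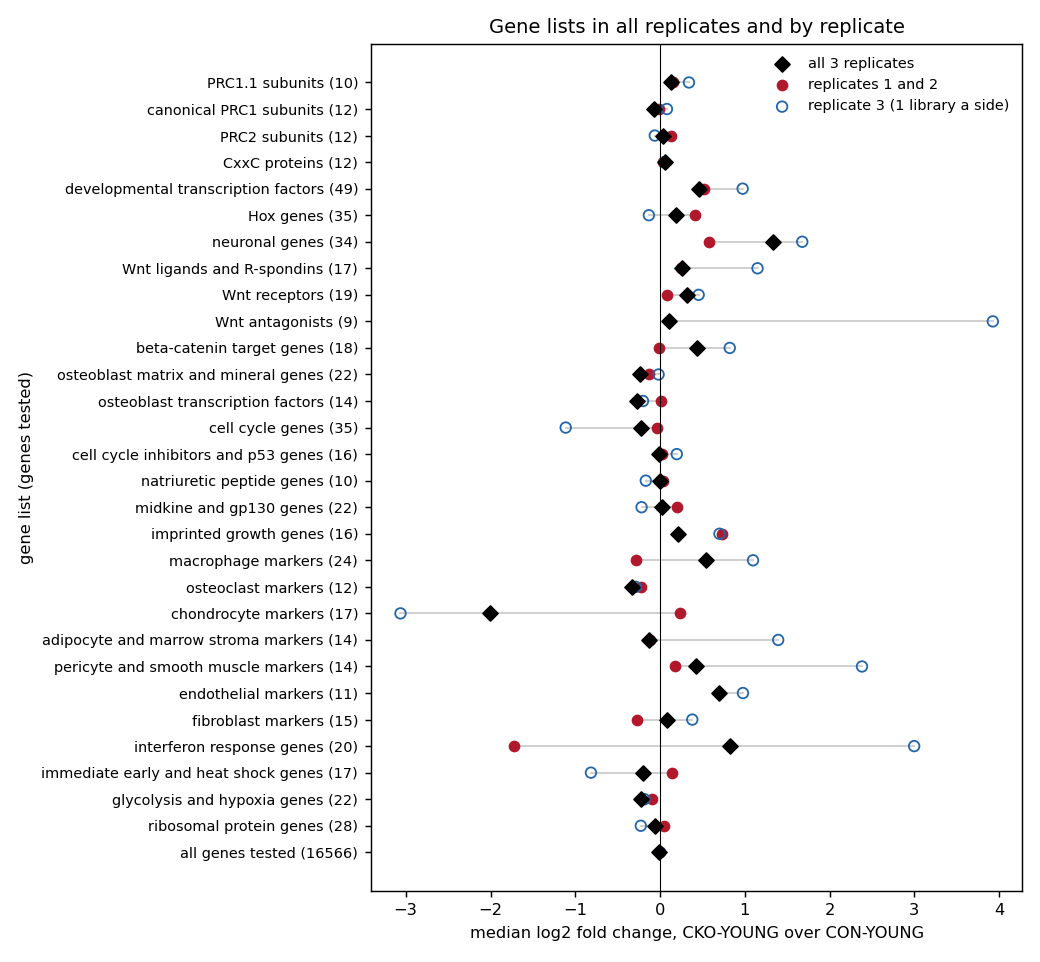
Each row is a gene list with at least 9 genes tested, and the x axis is the median log2 fold change of CKO-YOUNG over CON-YOUNG over all 3 replicates (black), within replicates 1 and 2 (red) and in replicate 3, 1 library a side (blue circles). The medians for interferon response genes are -1.72 within replicates 1 and 2 and 3.00 in replicate 3. The neuronal genes and developmental transcription factors are positive in all 3 readings. So are other lists, among them endothelial markers, pericyte and smooth muscle markers, imprinted growth genes, Wnt receptors and CxxC proteins.

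Fitted within replicates 1 and 2, with 1 coefficient per group and library set, 76 genes were called (62 higher and 14 lower, or 0.459%, 0.374% and 0.0845% of the genes tested), and 15 of the 21 were among them. The library sets were parted by the Malat1 share as seen in these data. Pgap6, a membrane protein of the cell surface, had the smallest p of the higher genes, with 21.9, 17.4 and 28.7 CPM in CKO-YOUNG, against 1.64, 2.06 and 8.16 CPM in CON-YOUNG (log2 fold change within replicates 1 and 2 of 3.41, adjusted p = 0.000311). Dock3, an activator of the GTPase Rac in neurons, had 17.2, 22 and 9.31 CPM in CKO-YOUNG, against 0.785, 0.460 and 4.11 CPM in CON-YOUNG (4.97, adjusted p = 0.000459). For both genes CON-YOUNG 3 was the highest control library, and the groups still did not overlap. Isyna1, Tcfl5 and Tchh followed, each at an adjusted p of 0.00171.

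Of the 14 lower genes within replicates 1 and 2, Ablim1, an actin-binding protein, had 0.642, 0.371 and 4.54 CPM in CKO-YOUNG, against 4.24, 3.53 and 24.2 CPM in CON-YOUNG (log2 fold change -2.93, adjusted p = 0.00245). It was lower in each of the 3 same-numbered pairs, though CKO-YOUNG 3 was above CON-YOUNG 1 and 2. Crabp2, which carries retinoic acid in the cell, had 0, 0 and 14.5 CPM in CKO-YOUNG, against 0.15, 0.349 and 3.64 CPM in CON-YOUNG (adjusted p = 0.0170), so replicate 3 went the other way. Rhbdl2, an intramembrane protease, had 0, 0 and 1.65 CPM in CKO-YOUNG, against 0.284, 0.496 and 6.37 CPM in CON-YOUNG (adjusted p = 0.00786). The decoy receptor Il13ra2 was under 0.4 CPM in all 6 libraries. Replicate 3 taken alone, 1 library a side, had 561 genes past the threshold higher and 552 lower (3.39% and 3.33%, together 6.72%), with 16 of the 21 among them, which describes those 2 libraries and not the deletion.

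Of the stress, metabolic and ribosomal genes edgeR and DESeq2 called 0, and 0 had an unadjusted p under 0.05. Of 17 immediate early and heat shock genes 3 were positive (median -0.20) over all replicates, but 15 within replicates 1 and 2 (median 0.14). Hspa1b, a heat shock chaperone, had 80.3, 123 and 235 CPM in CKO-YOUNG, against 45.4, 69.6 and 96.9 CPM in CON-YOUNG (log2 fold change 1.05, adjusted p = 0.935). Of 22 glycolysis and hypoxia genes 7 were positive (median -0.22), of 28 ribosomal protein genes 9 (median -0.06) and of 9 Wnt antagonists 5 (median 0.10). Frzb, a secreted Wnt antagonist of cartilage that DESeq2 called, had 4.95, 3.62 and 24.8 CPM in CKO-YOUNG, against 2.64, 2.02 and 1.63 CPM in CON-YOUNG (2.41, adjusted p = 0.304).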

How the data were processed

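The authors deposited whole-number counts of reads, 1 row per gene symbol and not normalized. Per the submitters' processing notes the tools were FastQC, Trim Galore and HISAT2 with the build mm39. Versions, counting program, annotation and strand setting: not given in the sources used here. A table of gene names matched 24964 of 26264 symbols. Samples were grouped by title.

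filterByExpr (at least 10 counts, total of at least 15) kept 16566 genes. After TMM scaling, edgeR's robust quasi-likelihood F test (two-sided) was fitted over all 18 RNA libraries with 1 coefficient per group, which leaves 12 residual degrees of freedom, and p-values were adjusted by Benjamini-Hochberg and called below 0.05. Where the text gives a gene's adjusted p, it is edgeR's. CPM use TMM library sizes. A fold against a group with 0 counts uses 3 counts over the group as floor, for counting error only. The biological coefficient of variation was 51.9%. The fit was tested on simulated data. Software: DESeq2 1.42.0, edgeR 4.0.16 and limma 3.58.1 (voom without quality weights) in R 4.3.3, figures by matplotlib 3.10.9 in Python 3.11.15.

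Members and gene lists were chosen with earlier results of these data known. Named genes are those called, Kdm2b, Axin2, Lef1, Bglap and Cdkn2a, up to 3 members of smallest p of each list, 5 genes a direction of smallest p among those not called whose groups do not overlap, and 5 a direction of smallest p within replicates 1 and 2. Predicted symbols are counted and not described. Npr2, Dlk1, Nefm, Wnt10a, Wnt11, Barx1, Hoxd11, Irf7, Stat2 and markers used as checks were named after their values were seen. Replicate numbers were read from titles. As a check of pairing, deviations from the group mean were correlated between CKO-YOUNG and CON-YOUNG libraries of 1 number (r = 0.276, 0.333 and 0.324). All exceed 0.1, but CKO-YOUNG 1 reached 0.375 with a control of another number, so the check does not settle whether the numbers pair libraries. The main fit has no term for pairs, and the replicate block is given as an alternative. CG was counted in promoters of a RefSeq table (GRCm38.p6). Alternatives were DESeq2 size factors, other count filters, DESeq2, limma-voom, the 6 libraries alone, the block, each library left out, and 1 coefficient per group and library set (sets parted by Malat1 above 0.05% of counts).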

Additional observations from a re-analysis of the deposited data

How the results depend on the processing

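The 21 genes higher in CKO-YOUNG became 159 with DESeq2, 65 with limma-voom, 4 with the 6 libraries alone, 0 with the replicate block on the 6 libraries and 62 and 561 within replicates 1 and 2 and in replicate 3; leaving out 1 library gave 2 to 22. The count of 0 lower genes became 68 with DESeq2, 5 with the replicate block over 18 libraries, 3 without replicate 3 in both groups, 14 and 552 within replicates 1 and 2 and in replicate 3, and 0 to 1 when 1 library was left out. DESeq2 size factors, both other count filters and the block over 18 libraries kept the higher count between 20 and 30. The 1 gene of the 21 called in CKO-OLD against OLD became 2 with no low-count filter, 14 with DESeq2, 4 with the replicate block, 5 without replicate 3 in both groups, and 1 to 4 when 1 library was left out. Kdm2b, at 0.17, ranged from -0.15 (without CON-YOUNG 3) to 0.44 when 1 library was left out, was -0.03 without CKO-YOUNG 2, and was called in no setting. Of 423 values of single named genes under the alternatives, 261 kept their direction and side of the threshold, 159 kept the direction and lost the call, 1 gained it, and 2 turned: with 1 library left out Bglap ran from -5.40 to 1.00 and Cdkn2a from -3.40 to 1.97, both turning without CON-YOUNG 3. The 423 values include those of Axin2, Lef1, Bglap and Cdkn2a, which the main fit did not call and which could not lose a call. All 159 lost calls were thus of the 21 genes. The cause of these changes was not tested, beyond the fewer residual degrees of freedom of fits on 6 libraries. Depth was 46272076 to 77698781 counts over the 18 libraries, so genes under about 0.05 CPM rest on 3 counts or fewer a library.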
